A study of Homo sapiens with 12 samples.

Results

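SW1990 and PANC-1 are established human cell lines of pancreatic ductal adenocarcinoma. They were set against each other in the 6 expression arrays labelled control, 3 of SW1990 (array names a, b and c) and 3 of PANC-1 (S10, S11 and S8), of 12 arrays in the series. The other 6 arrays, 3 of each line, carry the label GLI1. By the labels, the control cells of both lines had received an empty plasmid with the lipid reagent used for the GLI1 plasmid, and no source ties the 3 arrays of a group to different cultures. The p-values therefore measure only the spread between these arrays, which may be technical. All 22411 genes with a single symbol among 70523 probe sets were compared. Values are log2 signals, so a difference of 1 is 2-fold, and the difference is always SW1990 minus PANC-1. A gene was called at an adjusted p under 0.05 (limma, Benjamini-Hochberg over all genes).

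Some facts of the arrays touch every comparison. GLI1, the Hedgehog transcription factor whose cDNA was transfected, ran against the labels. Its signal was 11.76 to 11.84 in the SW1990 and 11.46 to 11.54 in the PANC-1 arrays labelled control, against 6.77 to 7.0 in the SW1990 and 7.76 to 8.04 in the PANC-1 arrays labelled GLI1. The groups are therefore called by their labels throughout. Array S8 stood apart from the other PANC-1 control arrays, with correlations of 0.9866 with S10 and 0.9875 with S11, against 0.9973 between S10 and S11. It correlated at 0.9922 and 0.9918 with 2 of the PANC-1 arrays labelled GLI1. In S8, 309 genes were at least 2-fold above and 66 at least 2-fold below the mean of S10 and S11, and 30 of 37 interferon-stimulated genes were among the higher ones. Among the SW1990 control arrays, a and b correlated at 0.9989, and c at 0.9967 with a and 0.997 with b. Between the lines, control arrays correlated at 0.9367 to 0.9435. The middle gene of these arrays had a signal of 7.21, and 80% of gene values lay between 4.07 and 9.70.

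Carcinoma cells lie along a range from an epithelial state, in which E-cadherin junctions, claudins and desmosomes tie cells into a sheet, to a mesenchymal state, in which those genes are silent and vimentin and N-cadherin are made. The repressor ZEB1 and the microRNAs of the miR-200 family hold each other down and set much of this balance. Pancreatic cancers are also divided into a classical subtype with gut and foregut genes and a basal-like subtype. PANC-1 is widely used as a mesenchymal-like line.

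The lines differed in much of the measured transcriptome. Of 22411 genes, 9102 were called, which is 40.6% of those tested, with 4920 (22.0%) higher and 4182 (18.7%) lower in SW1990. The 3 SW1990 arrays did not overlap the 3 PANC-1 arrays in 8878 of the called genes. That count is within genes that the same arrays had already called, and the share over all genes was not counted. Since so many small differences passed, gene groups are described by the members that were called and differed at least 2-fold, a rule met by 908 genes (4.05%) higher and 928 genes (4.14%) lower in SW1990. Every count of list members below is to be read against these shares of all genes. For members called at any size, the shares are the 22.0% and 18.7% above. The median difference over all genes was -0.02. Differences of at least 16-fold numbered 26 higher and 71 lower in SW1990. Many of the 71 are copies of imprinted snoRNAs described below, such as SNORD116 genes. The 19 SNORD116 genes had a median difference of -4.85, with 1 of them, SNORD116-10, at only -0.34. SW1990 array medians of that family were 3.55 to 3.83, under the 4.07 that marks the lowest 10% of gene values, so the size of these differences is uncertain. When limma tested directly for a difference beyond 2-fold, 922 genes passed in place of 1836.

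The arrays labelled GLI1 share no array with this comparison, and gave the same line difference for most of these genes. There, 739 genes (3.30%) were at least 2-fold higher and 954 (4.26%) at least 2-fold lower in SW1990. In both comparisons, 1323 genes passed in the same direction, which is 72.1% of the list from the control-labelled arrays and 78.1% of that from the arrays labelled GLI1. TAP1, described below with antigen presentation, was the 1 gene that passed in opposite directions. The share was 64.6% of the higher list and 79.3% of the lower list. Across all genes the differences of both comparisons had a Pearson correlation of 0.91, a description across genes that share an array platform and cell lines. The change of the line difference with the label was called for 536 genes (2.39%), of which 187 were at least 2-fold different in the control-labelled arrays, 138 higher and 49 lower in SW1990. Without S8 that count of 536 was 3416, and it stayed between 228 and 380 without any other control array.

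**Figure D1:**
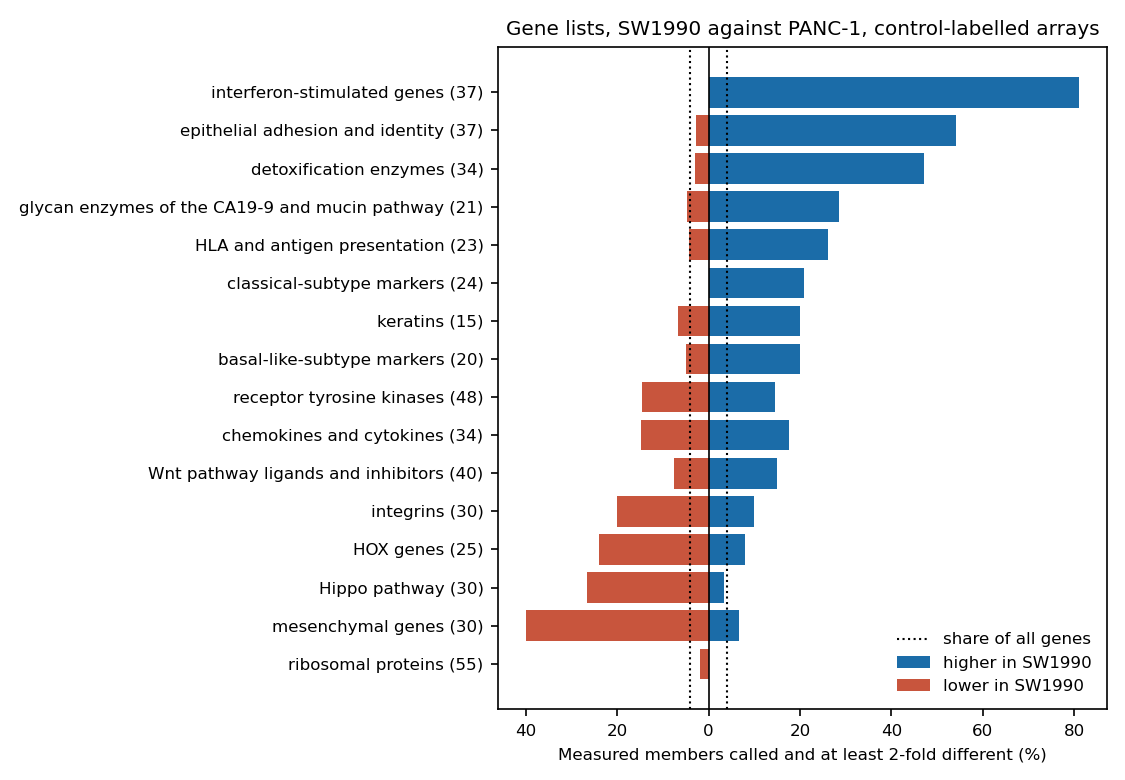
Share of the measured members of 16 gene lists (number measured in brackets) that were called and at least 2-fold higher (right, blue) or lower (left, red) in SW1990 than in PANC-1, control-labelled arrays. The dotted lines mark the shares among all genes, 4.05% higher and 4.14% lower. Interferon-stimulated, epithelial and detoxification genes reach furthest to the SW1990 side and mesenchymal genes furthest to the PANC-1 side.

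Genes of epithelial identity were mostly higher in SW1990. Of 37 measured genes of epithelial adhesion and identity, 31 were higher and 3 lower in SW1990, and 20 were at least 2-fold higher (54.1% against 4.05% of all genes). Their median difference was 1.32, and 1.22 in the arrays labelled GLI1. CDH1, which encodes E-cadherin, the adhesion protein of epithelial junctions, had signals of 11.08, 11.13 and 11.17 in SW1990 and of 6.29, 6.32 and 7.74 in PANC-1. The difference was 4.34 or 20.3-fold, with a standard error of 0.37 and, by limma, an adjusted p of 2.51e-06. EPCAM, a surface glycoprotein of epithelia, reached 10.90, 10.83 and 10.81 in SW1990 against 6.70, 6.45 and 7.53 in PANC-1, a difference of 3.95. For both genes S8 was the highest PANC-1 array and still lay far under every SW1990 array, and 3 members of the list were at least 2-fold higher in S8 than in the mean of S10 and S11.

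The list also holds regulators of the epithelial state. EHF, an ETS factor of epithelia, had signals of 9.66, 9.55 and 9.64 in SW1990 and of 5.64, 5.6 and 5.72 in PANC-1. GRHL2, a grainyhead factor that activates CDH1 and other junction genes, stood at 9.34, 9.35 and 9.46 in SW1990 against 5.72, 5.76 and 5.62 in PANC-1. ESRP1, a splicing factor that makes epithelial isoforms, was 3.06 higher, with its relative ESRP2 1.45 higher. Another ETS factor of epithelia, ELF3, differed by 0.71, was not called without S10 or S11 (adjusted p = 0.0502 and 0.0534 from limma), and differed by 0.04 in the arrays labelled GLI1. For EHF and GRHL2, S8 was not set off from S10 and S11. KLF5, a Krüppel-like factor of gut and other epithelia, was 12.3-fold higher in SW1990 (10.93 to 10.94 against 7.19 to 7.48). RAB25, a small GTPase of the recycling endosome in epithelia, differed by 3.73.

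Junction and membrane proteins followed the same direction with few exceptions. P-cadherin (CDH3) was higher by 3.04, claudin 7 (CLDN7) by 2.85, the protease prostasin (PRSS8) by 2.65, and matriptase (ST14) and desmoplakin (DSP) each by 2.62. The inhibitor of these proteases, SPINT1, was 2.38 higher. Against the direction of the list, claudin 1 (CLDN1) was at 8.65, 8.56 and 8.71 in SW1990 and at 10.03, 10.61 and 10.75 in PANC-1, a difference of -1.83, and desmocollin 2 (DSC2) and occludin (OCLN) were lower by 0.86 and 0.29. Over all 24 measured claudins, 6 were higher and 3 lower, against 22.0% and 18.7% of all genes, with 3 and 1 at least 2-fold and 15 not called. CLDN2, a claudin that lets cations through the junction, led these with a difference of 3.08.

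The E-box motif CAGGTG, read on both strands as CAGGTG or CACCTG, is the site that ZEB1, SNAI1 and related repressors are known to bind in epithelial promoters. It was looked for in the 250 bases before the start of each gene in RefSeq's table (GRCh38.p14). Of the 37 epithelial genes, 20 had a promoter there and 8 of these held the motif, against 17.5% of all 35116 promoters and 3 of 19 mesenchymal genes (15.8%). Among the 8 promoters of epithelial genes that were at least 2-fold higher, 2 held it, those of RAB25 and DSP. The following runs show the promoter of CRB3, a polarity protein of the apical membrane and the gene with the most copies, and that of RAB25, with each copy in capitals.
CRB3 promoter, GRCh38.p14, chr19:6464021-6464270, plus strand: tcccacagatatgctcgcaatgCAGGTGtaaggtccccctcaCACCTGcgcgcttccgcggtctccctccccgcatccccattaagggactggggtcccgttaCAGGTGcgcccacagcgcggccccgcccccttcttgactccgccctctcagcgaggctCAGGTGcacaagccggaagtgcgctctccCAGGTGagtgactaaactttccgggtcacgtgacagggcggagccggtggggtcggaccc
RAB25 promoter, GRCh38.p14, chr1:156060910-156061159, plus strand: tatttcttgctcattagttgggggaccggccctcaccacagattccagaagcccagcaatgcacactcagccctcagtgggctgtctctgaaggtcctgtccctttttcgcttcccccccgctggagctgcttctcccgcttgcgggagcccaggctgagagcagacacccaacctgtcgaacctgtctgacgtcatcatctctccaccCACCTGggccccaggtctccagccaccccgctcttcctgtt
CRB3, with 5 copies, had signals of 8.30, 8.37 and 8.26 in SW1990 and of 7.70, 7.60 and 7.63 in PANC-1, a difference of 0.67 that is small beside that of RAB25, with 1 copy, at 9.61, 9.55 and 9.61 in SW1990 and 5.91, 5.98 and 5.71 in PANC-1. A match is a description of the letters and shows no binding.

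Mesenchymal genes ran the other way. Of 30 measured genes, 19 were lower and 2 higher in SW1990, with 12 of the 30 at least 2-fold lower (against 4.14% of all genes) and a median of -0.66. VIM, the intermediate filament vimentin, had signals of 6.14, 6.14 and 6.12 in SW1990 and of 12.09, 12.11 and 11.91 in PANC-1. The difference was -5.90, or 59.8-fold, and limma gave it a standard error of 0.07 and an adjusted p of 4.96e-13. ZEB1 was at 5.97, 5.90 and 6.10 in SW1990 and at 9.62, 9.58 and 9.02 in PANC-1. N-cadherin (CDH2) stood at 5.2, 5.24 and 5.28 against 9.27, 9.37 and 9.95 in PANC-1. E-cadherin was thus on the SW1990 side and N-cadherin on the PANC-1 side.

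Further mesenchymal genes lower in SW1990 were the receptor kinase AXL (difference -4.21), caveolin 1 (CAV1, -2.71), the RNA-binding protein QKI (-2.39), the matrix protein TGFBI (-2.31) and the matrix cross-linker LOXL2 (-1.41). SNAI2, which encodes the repressor Slug, was 0.88 lower. Not all of the program differed. SNAI1 (0.10), TWIST1 (-0.04), the matrix protein fibronectin (FN1, -0.05) and SPARC (0.08) were not called. PRRX1, a homeobox factor of mesenchyme, was 1.61 higher in SW1990, and the smooth muscle actin ACTA2 was 1.10 higher, at 8.72 to 8.79 in SW1990 against 7.63 to 7.68 in PANC-1.

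Outside the lists, 3 of the 15 largest differences lower in SW1990 were of protein-coding genes. RAB31, a GTPase of endosome transport, had signals of 5.46, 5.42 and 5.54 in SW1990 and of 12.19, 12.33 and 12.26 in PANC-1, or 110-fold lower. GJA1, the gap junction protein connexin 43, stood at 4.65, 4.66 and 4.76 in SW1990 against 11.52, 11.17 and 11.25 in PANC-1, a difference of -6.62. PRKAA2, the alpha 2 catalytic subunit of AMP-activated kinase, differed by -6.12. Moesin (MSN), which ties actin to the membrane and was picked after its values were seen, was at 6.20, 5.96 and 5.94 against 11.09, 11.14 and 11.19 in PANC-1. The lines did not overlap in any of these 4 genes, which for the first 3 was a condition of the choice.

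**Figure D2:**
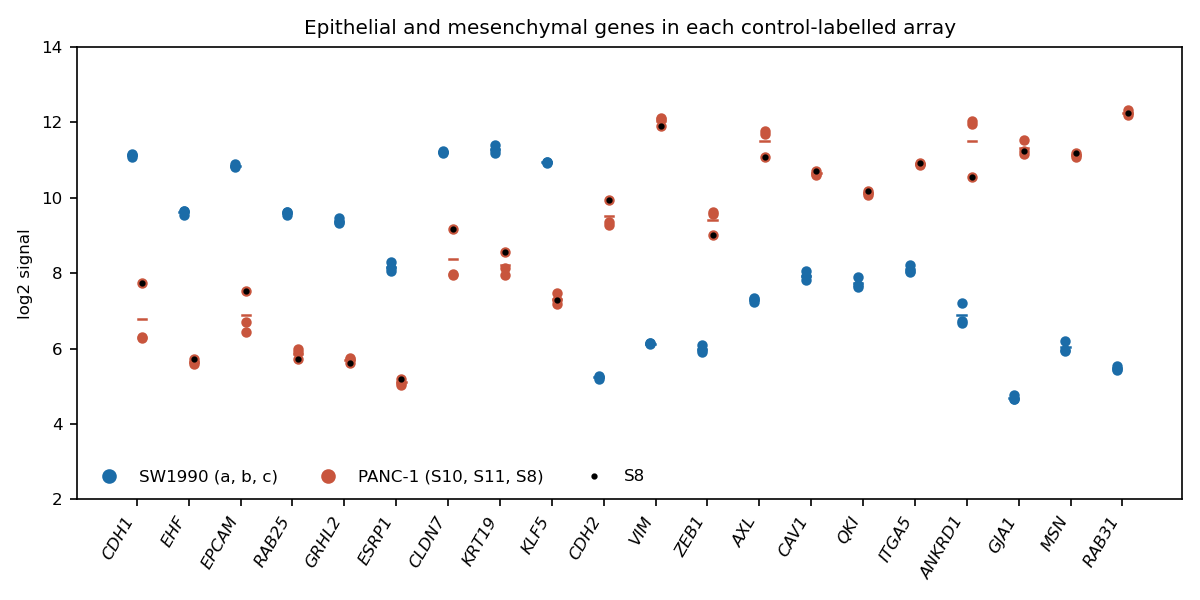
Log2 signal (y axis) of 20 genes (x axis) in each control-labelled array, SW1990 in blue to the left of PANC-1 in red. The short lines are means of 3 arrays and the black dots mark S8. The groups do not overlap in any of these genes, which was a condition of the choice of GJA1 and RAB31. S8 lies above S10 and S11 for CDH1, EPCAM, CLDN7, KRT19 and the mesenchymal gene CDH2, among others. It lies below them for ANKRD1, ZEB1, VIM and RAB25, among others.

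Integrins, which bind cells to the matrix, differed in both directions. Of 30 integrin genes, 7 were higher and 10 lower in SW1990 (against 22.0% and 18.7% of all genes), and 3 and 6 of these at least 2-fold. ITGA5, the alpha chain of the fibronectin receptor, was at 8.04, 8.07 and 8.21 in SW1990 and at 10.88, 10.89 and 10.93 in PANC-1, a difference of -2.79. ITGB3 differed by -2.25, ITGAV by -1.24 and ITGB1 by -1.07. On the other side, the hemidesmosome chain ITGB4 was 2.07 higher and ITGB6, an integrin chain of epithelia, 1.73 higher.

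Of 41 collagens, 10 were lower and 1 higher, against 18.7% and 22.0% of all genes. At least 2-fold lower were 3 (7.32% against 4.14% of all genes), among them COL12A1 (-1.82) and COL5A2 (-1.69). COL1A1 differed by -0.85, by -0.47 without S8, and was not called without SW1990 array c (adjusted p = 0.0619 from limma). Of 13 laminin and basement membrane genes, the linker NID1 differed most (-3.27), with 6.20, 6.19 and 6.01 in SW1990 against 8.72, 9.04 and 10.44 in PANC-1. Of 22 matrix metalloproteinases, which cut matrix proteins, 5 were lower and 2 higher, against 18.7% and 22.0% of all genes. MMP16 differed by -3.35, MMP1 by -3.19 (-4.06 without S8) and MMP2 by -1.90 (-1.25 without S8). The PANC-1 arrays spread widely for MMP1, at 8.26, 8.66 and 5.86, against 4.30, 4.38 and 4.54 in SW1990.

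For microRNAs, the arrays measure transcripts of the locus and not the mature microRNA. The mature sequences of RefSeq (GRCh38.p14) are shown with the seed, bases 2 to 8, in capitals, since the seed decides which targets are bound and groups these microRNAs into families.
hsa-miR-200b-3p: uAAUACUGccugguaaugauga
hsa-miR-200c-3p: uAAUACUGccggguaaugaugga
hsa-miR-429: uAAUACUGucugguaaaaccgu
hsa-miR-200a-3p: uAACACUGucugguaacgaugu
hsa-miR-141-3p: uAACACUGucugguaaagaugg
hsa-miR-221-3p: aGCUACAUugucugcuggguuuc
hsa-miR-222-3p: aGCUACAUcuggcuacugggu
hsa-miR-21-5p: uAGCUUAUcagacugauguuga
hsa-miR-31-5p: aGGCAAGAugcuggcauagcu
The miR-200 members share 2 seeds, AAUACUG and AACACUG, and come from 2 clusters, on chromosomes 1 and 12. MIR200C on chromosome 12 was the only locus of the 5 that was called, at 5.64, 5.43 and 5.51 in SW1990 against 5.06, 4.95 and 4.64 in PANC-1 (difference 0.64, adjusted p = 0.000345 from limma). Its neighbour MIR141 differed by 0.27 (adjusted p = 0.0662), and the chromosome 1 members MIR200A, MIR429 and MIR200B by 0.36, 0.19 and -0.05, all overlapping between the lines. Single arrays decided some of these calls. By limma, MIR141 was called without c (adjusted p = 0.0111) or without S10 (0.0318), and MIR200A without a (0.0308) or without S10 (0.0378). In the arrays labelled GLI1, MIR141 differed by 1.2 and MIR200C by 1.23.

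Other microRNA loci with large differences were lower in SW1990. MIR21 had signals of 7.60, 7.86 and 8.07 in SW1990 and of 9.59, 9.50 and 9.70 in PANC-1, a difference of -1.75. MIR31 and its host MIR31HG differed by -1.72 and -1.92, and by -0.45 and -0.53 in the arrays labelled GLI1. MIR221 and MIR222 share a seed and are neighbours on the X chromosome, yet MIR222 differed by -1.66 and MIR221 by -0.38 (adjusted p = 0.44). S10 was the highest PANC-1 array for MIR222, with 8.83 against 7.23 in S11 and 7.08 in S8, and MIR222 differed by 0.24 in the arrays labelled GLI1. Of the 19 measured loci in the list, 3 were higher and 7 lower, against 22.0% and 18.7% of all genes. At least 2-fold different were 1 and 4. Without S10, 5 were higher.

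Of 15 keratins, 6 were higher and 2 lower in SW1990, against 22.0% and 18.7% of all genes. At least 2-fold different were 3 and 1, and 7 were not called (median 0.06). KRT19, the duct keratin, was at 11.19, 11.27 and 11.40 in SW1990 and at 8.14, 7.95 and 8.57 in PANC-1, a difference of 3.07, and the gut keratin KRT20 differed by 2.19. KRT8 and KRT18, the pair of simple epithelia, were at 12.03 to 12.05 and 12.44 to 12.50 in SW1990 against 10.46 to 11.81 and 11.74 to 12.34 in PANC-1. S8 was the highest PANC-1 array for both. KRT7 was at 7.88 to 8.15 in SW1990 and 8.06 to 8.12 in PANC-1 and was not called. KRT80 was lower by 1.28.

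Most markers of the tumour subtypes were not called. Of 24 classical-subtype markers, 7 were higher (against 22.0% of all genes), 5 of them at least 2-fold, none was called lower, and the median was 0.04. CDH17, a cadherin of gut epithelium, had signals of 9.56, 9.36 and 9.52 in SW1990 and of 4.60, 4.69 and 4.87 in PANC-1. PRR15L differed by 3.89, the tetraspanin TSPAN8 by 1.77 and GATA6, the factor that marks the classical subtype, by 1.67, at 10.08 to 10.29 in SW1990 against 8.12 to 8.80 in PANC-1. The other 17 classical markers were not called. Of 20 basal-like markers, 8 were higher and 1 lower, with 4 and 1 at least 2-fold, 11 were not called, and the median was 0.12. The long noncoding RNA UCA1 was 22.9-fold higher (10.85 to 10.94 against 6.30 to 6.46), the focal adhesion protein TNS4 higher by 4.0 on the log2 scale and the carrier protein FGFBP1 4.92-fold. The dehydrogenase DHRS9 was lower by 3.25, with PANC-1 values of 8.39, 7.69 and 6.69.

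Among 15 mucins 3 were higher and 2 lower, against 22.0% and 18.7% of all genes, and 10 were not called. The membrane mucins MUC13 (9.18, 8.98 and 9.14 in SW1990 against 4.71, 4.48 and 4.69 in PANC-1) and MUC20 (difference 2.09) led, MUC5AC differed by 0.49 and MUC1 was 0.64 lower. Of 21 enzymes that build mucin sugars and the CA19-9 antigen, 10 were higher and 6 lower, 6 and 1 of them at least 2-fold. GALNT3 and GALNT12, which start O-linked chains, differed by 3.66 and 3.24. FUT3, the fucosyltransferase that completes CA19-9, differed by 1.49 (8.01 to 8.05 against 6.45 to 6.63) and FUT2 by 2.09. C1GALT1, which extends the core of these chains, was 1.14 lower.

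Kallikreins and TMPRSS enzymes are secreted and surface proteases. Of 23 kallikreins and TMPRSS proteases, 12 were higher and none was called lower, against 22.0% and 18.7% of all genes. Of these 12, 3 were at least 2-fold higher. KLK7 was at 9.99, 10.02 and 10.15 in SW1990 and at 5.68, 5.54 and 5.69 in PANC-1, and its cluster neighbours KLK6 and KLK10 differed by 3.78 and 2.37. Serpins are a family of protease inhibitors. Of 30, 5 were higher and 1 lower, under the 22.0% and 18.7% of all genes, and 24 were not called. The largest differences were SERPINB5 (maspin) at 3.04, SERPINB1 at 2.41 and SERPINB9 at 1.5. S100A14 (2.33) was the only one of 19 S100 proteins past 2-fold. Of 26 ion and water channels and transporters of duct epithelium, 5 were at least 2-fold higher, among them the sodium channel SCNN1A (3.07), carbonic anhydrase CA12 (2.57) and the chloride channel CFTR (1.45), while the sulfate carrier SLC26A2 was 2.42 lower.

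Outside these lists, the largest differences higher in SW1990 were of varied function. CCAT1, a long noncoding RNA near MYC known from colon cancer, had signals of 10.31, 10.26 and 10.45 in SW1990 and of 4.33, 4.74 and 4.41 in PANC-1, or 57.6-fold. VTRNA2-1, a vault RNA paralog, was at 10.48, 10.48 and 11.08 against 5.89, 5.45 and 5.85 in PANC-1. PARM1 (4.71), MACC1, an activator of MET known from colon cancer (4.52), the fatty acid transporter SLC27A2 (4.50), SEL1L3 (4.49) and the hyaluronan-binding protein CEMIP (4.48) followed. All of them kept a difference of at least 4 in the arrays labelled GLI1, with CCAT1 at 5.66 and CEMIP at 5.11.

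Of 27 measured factors of pancreas and foregut, 12 were higher and 2 lower, with 5 and 2 at least 2-fold. Beside KLF5 and GATA6, HNF4G (2.29), FOXA1 (2.19) and the gut factor CDX2 (1.63) were higher. FOXA2, the close relative of FOXA1, went the other way, at 8.09, 8.08 and 8.10 in SW1990 and at 9.62, 9.79 and 9.37 in PANC-1, and GATA4 was 1.07 lower. PDX1, the factor of the pancreatic lineage, differed by 0.37 and SOX9, of the duct, by 0.70.

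HOX genes, which record the position of a tissue along the body axis, differed in both directions. Of 25 measured, 10 were higher and 8 lower, against 22.0% and 18.7% of all genes. At least 2-fold different were 2 and 6 (8.0% and 24.0%, against 4.05% and 4.14% of all genes). The called HOXC genes lay on the PANC-1 side. HOXC10 was at 6.37, 6.29 and 6.47 in SW1990 and at 8.39, 8.71 and 8.54 in PANC-1, HOXC11 differed by -2.13, HOXC8 by -1.47, HOXC9 by -1.38, HOXC13 by -1.17, HOXC6 by -0.72 and HOXC5 by -0.71, while HOXC4 and HOXC12 were not called. HOXC4 was called without S10 or S11 (adjusted p = 0.0423 and 0.0338 from limma). In the HOXB cluster, HOXB9 was 1.62 higher, with 11.46 to 11.50 against 9.72 to 9.94, HOXB6 1.07 and HOXB5 0.91 higher, but HOXB2 at the other end was 1.43 lower. The called HOXD genes, HOXD8, HOXD9, HOXD10 and HOXD13, were higher by 0.33 to 0.57.

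Of 40 measured Wnt ligands, receptors and inhibitors, 7 were higher and 7 lower, against 22.0% and 18.7% of all genes, with 6 and 3 at least 2-fold. Wnt signals through beta-catenin switch on their own inhibitors, AXIN2, RNF43, ZNRF3 and NKD1, and the stem cell receptor LGR5. RNF43, a ligase that removes Wnt receptors from the membrane, was at 10.66, 10.57 and 10.70 in SW1990 and at 5.52, 5.64 and 5.68 in PANC-1, a difference of 5.03, to which limma gave a standard error of 0.06 and an adjusted p of 4.96e-13. AXIN2 was at 10.36, 10.43 and 10.56 in SW1990 against 7.05, 6.91 and 6.99 in PANC-1. The factor LEF1 differed by 3.02, LGR5 by 1.96, ZNRF3 by 1.71 and NKD1 by 1.14. These 6 were all of the list's members at least 2-fold higher. DKK1, a secreted inhibitor that binds the Wnt coreceptor, was lower by 4.23, at 7.41, 7.37 and 7.76 in SW1990 and at 11.65, 11.62 and 11.96 in PANC-1, and DKK3 and SFRP1 were lower by 1.67 and 1.03. The difference of AXIN2 was larger by 0.63 in the arrays labelled GLI1 (adjusted p of the change 0.00699).

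Receptor tyrosine kinases formed different sets. Of 48, 14 were higher and 13 lower, 7 each at least 2-fold (14.6% in either direction). SW1990 had more ERBB3, a receptor of neuregulins (9.16, 9.20 and 9.37 against 6.58, 6.54 and 6.67 in PANC-1), KIT (difference 2.22), EPHB3 (1.39), INSR (1.36), MST1R (1.28), FLT1 (1.11) and EPHA1 (1.09). On the PANC-1 side stood AXL and its relative MERTK (-2.09), the VEGF receptor KDR (-2.34), IGF1R (-1.16), FGFR1 (-1.11) and EGFR (-1.06). EPHA7 (-1.58) rested on S8, at 7.44 against 5.10 in S10 and 5.59 in S11, and without S8 it differed by -0.89 and was not called (adjusted p = 0.12 from limma). It was not called without any 1 of the SW1990 arrays either (adjusted p = 0.0889 to 0.0909).

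The Hippo pathway holds back the coactivator YAP1, whose targets include ANKRD1, CCN1 and CCN2. Of its 30 measured genes and targets, 4 were higher and 11 lower in SW1990, and 8 were at least 2-fold lower (26.7%). Among its targets, ANKRD1 was at 6.74, 6.69 and 7.21 in SW1990 and at 12.05, 11.95 and 10.54 in PANC-1, and CCN1 and CCN2 differed by -2.76 and -2.42. YAP1 itself was at 10.18 to 10.22 in SW1990 and 10.12 to 10.21 in PANC-1, a difference of 0.02 that was not called, while its partner coactivator WWTR1 was 1.17 lower. The atypical cadherin FAT4 (-3.93), the scaffold AMOTL1 (-1.81) and NF2, the upstream suppressor merlin (-1.43), were lower too. The kinase STK4 differed by -0.28 and was called with all arrays, but not without any 1 of a, b, c, S10 or S11 (adjusted p = 0.0526 to 0.1 from limma), and the kinases STK3 (-0.07) and LATS1 (0.11) were not called.

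Hedgehog genes differed little. Of 19, not counting GLI1, 3 were higher and 3 lower, against 22.0% and 18.7% of all genes. Without any 1 of c, S10 or S11, 1 was higher. Only PTCH1, the receptor that is also a target of the pathway, passed 2-fold, at 8.78, 8.69 and 8.83 in SW1990 and at 7.32, 7.38 and 7.41 in PANC-1 (difference 1.40). The ligand release protein DISP1 was lower by 1.0, GLI2 by 0.31 and GLI3 by 0.35. GLI2 was not called without any 1 of a, b, c or S11 (adjusted p = 0.0518 to 0.108 from limma). SHH (-0.11) and HHIP (-0.14) were not called. GLI1 differed by 0.31 in the control-labelled arrays (adjusted p = 0.00874 from limma), by 0.19 in the values as deposited and by 0.15 after centring on the array median, and neither of these passed the test.

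Enzymes that process drugs and reactive compounds were higher in SW1990 as a broad group. Of 34, 25 were higher and 2 lower, with 16 at least 2-fold higher (47.1%) and 1 lower. NQO1, a quinone reductase, was at 12.57, 12.51 and 12.56 in SW1990 and at 9.89, 10.02 and 10.89 in PANC-1, AKR1C2 differed by 2.26, AKR1C1 by 2.0 and AKR1B10 by 1.48. In the arrays labelled GLI1 these AKR1 genes differed by 0.83, 1.12 and 0.3. ALDH2, the mitochondrial aldehyde dehydrogenase, differed by 2.72 and ALDH3A1 by 2.54. UGT8, counted in this list although it makes galactosylceramide, was 20.9-fold higher, at 9.18, 9.25 and 9.34 against 4.93, 4.86 and 4.84 in PANC-1. CYP4F11 differed by 3.80, but by 1.96 in the arrays labelled GLI1, and this change of 1.85 was called (adjusted p = 0.000714). CYP1B1 was the exception, at 8.30, 8.40 and 8.41 in SW1990 and 10.91, 11.72 and 11.73 in PANC-1. The AKR1C and GSTM genes are near-identical copies whose probes may share signal, so their single values are uncertain.

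Among 23 measured drivers and suppressors of pancreatic cancer, 10 were higher and 5 lower, against 22.0% and 18.7% of all genes. At least 2-fold higher were 4: RNF43, MTAP, and the chromatin remodelling ATPases SMARCA2 (1.76) and SMARCA4 (1.21). SMAD4, which carries TGF-beta signals, was at 9.83 to 9.93 in SW1990 and 9.78 to 9.97 in PANC-1 (difference 0.00), and CDKN2A, which encodes the cell cycle inhibitor p16, at 6.09 to 6.18 and 6.19 to 6.22 (difference -0.06). TGFBR2 was 0.68 lower. MTAP, an enzyme of methionine salvage next to CDKN2A, was at 8.82, 8.58 and 8.89 in SW1990 and at 5.44, 5.54 and 5.52 in PANC-1, a difference of 3.26. Of 36 measured genes in RefSeq order from FOCAD to IFT74 on chromosome 9, 8 were higher and 3 lower, with 3 and 2 at least 2-fold and a median of -0.02. On one side of MTAP, MIR31 and MIR31HG differed by -1.72 and -1.92. On the other, CDKN2A-AS1 (0.02) and CDKN2B-AS1 (0.02) were not called, CDKN2B differed by 0.43, and the far neighbours CAAP1, IFT74 and PLAA by 1.31, 1.12 and 0.81. DNA copy number was not measured.

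A run of neighbours on chromosome 19 was lower in SW1990. It was found by taking the median difference of every 25 neighbouring genes, over 21826 such windows. Outside the snoRNA clusters described next, the window centred on LEUTX had the lowest median, -1.52, and -1.54 in the arrays labelled GLI1, while the lowest on chromosomes 7, 12 and X were -0.64, -0.56 and -0.54. From PAF1 to AKT2 in RefSeq order, 22 of 30 measured genes were lower, 19 of them at least 2-fold, and none was called higher. PAF1, a subunit of a polymerase elongation complex, was at 9.45, 9.44 and 9.49 in SW1990 and at 11.76, 11.82 and 12.03 in PANC-1. AKT2, a kinase of the insulin pathway, was at 8.55, 8.56 and 8.52 against 10.60, 10.65 and 10.53 in PANC-1.

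Between them lay PLEKHG2 (-2.82), MED29 (-2.14), SUPT5H (-1.93), TIMM50 (-1.79), EID2B (-2.82), DYRK1B (-2.44), FBL (-2.0), PSMC4 (-1.56), ZNF546 (-3.32), ZNF780B (-2.94), ZNF780A (-2.51) and MAP3K10 (-2.44). These genes were picked after their values were seen. The genes of the run that were not called, such as LGALS13, LGALS14, LGALS16 and LEUTX, had mean signals of 4.16 to 5.84 in SW1990 and 4.2 to 5.87 in PANC-1, and MIR4530 and CCNP, also not called, differed by 0.03 and 0.02. Just beyond the run, PLD3 was 0.34 and SERTAD1 0.48 higher in SW1990. DNA copy number was not measured here either.

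**Figure D3:**
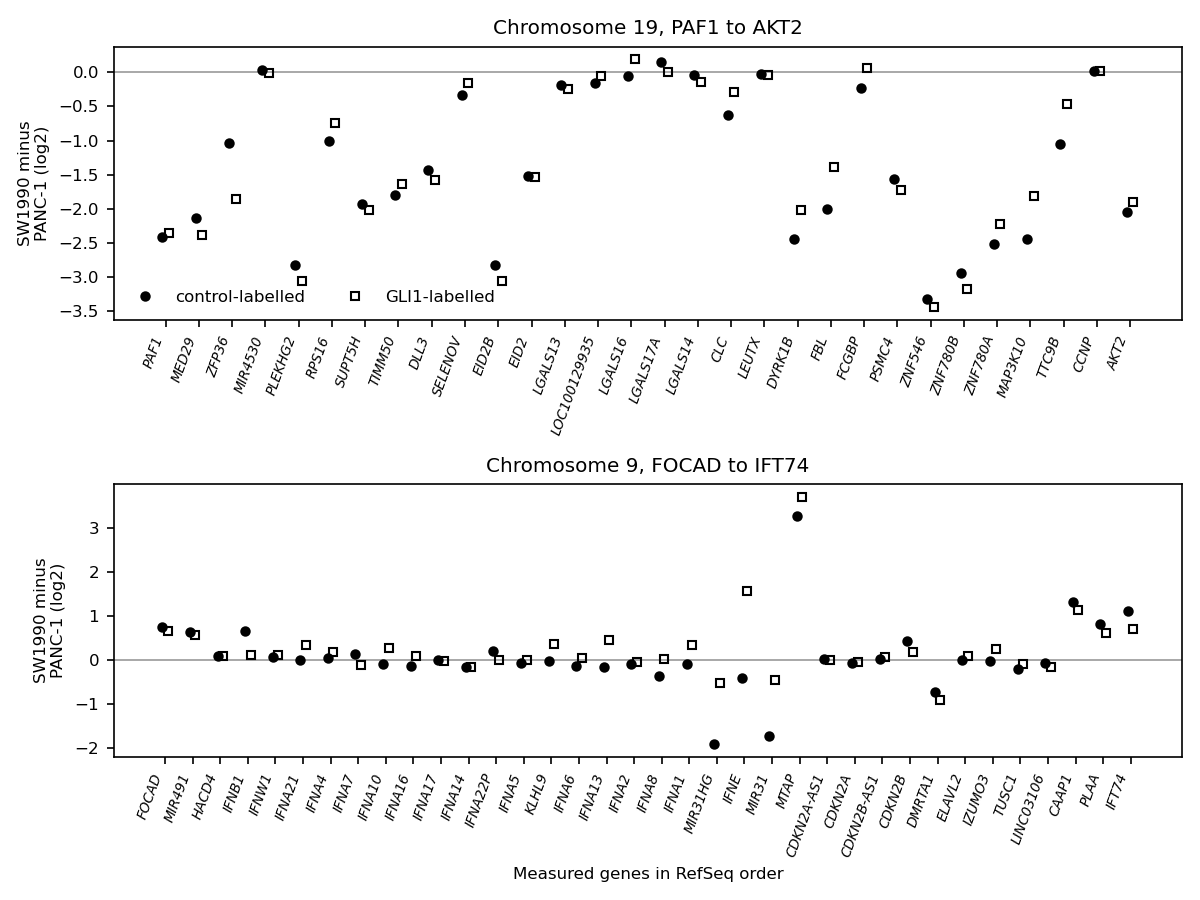
Line difference (SW1990 minus PANC-1, log2, y axis) of measured genes in RefSeq order (x axis) on chromosomes 19 (top) and 9 (bottom), in control-labelled (filled) and GLI1-labelled (open) arrays. From PAF1 to AKT2, 19 of 30 genes were at least 2-fold lower, while on chromosome 9 MTAP is at 3.26, MIR31 and MIR31HG beside it are at -1.72 and -1.92, and CDKN2A is at -0.06.

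Zinc finger genes, many of them KRAB repressors, were a large group with more members lower than higher. Of 453 ZNF genes, 44 were at least 2-fold lower (9.71% against 4.14% of all genes) and 9 higher (1.99% against 4.05%). On chromosome 19, where most KRAB repressors lie, 31 of 229 were lower (13.5%), against 13 of 224 elsewhere (5.80%), a split made after the values were seen. ZNF134 was at 4.65, 5.00 and 4.76 in SW1990 and at 9.50, 9.67 and 9.74 in PANC-1, and ZNF546, ZNF614, ZNF347, ZNF461 and ZNF550 differed by -3.32, -3.11, -2.97, -2.74 and -2.72. Only ZNF546 of these lies in the run described above.

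Small nucleolar RNAs of the imprinted clusters held 12 of the 15 largest differences lower in SW1990. These C/D box RNAs are cut from introns of long transcripts that are made from 1 parental allele in normal tissue. Of 40 measured SNORD113 and SNORD114 genes on chromosome 14, 39 were lower and 34 at least 2-fold, with a median of -3.17. SNORD114-25 had signals of 3.27, 3.24 and 3.43 in SW1990 and of 10.83, 11.29 and 11.65 in PANC-1, or -7.95 between the means, and limma gave this an adjusted p of 1.1e-10. Its SW1990 signals lie under 4.07, among the lowest 10% of gene values, and whether they exceed background cannot be read from these values, so no fold is given. MEG3, the long noncoding RNA of the same domain, was at 6.37, 6.41 and 6.38 in SW1990 against 8.95, 9.51 and 8.43 in PANC-1. On chromosome 15, 19 of 19 SNORD116 genes were lower, 18 of them at least 2-fold, with SNORD116-14 at 3.22, 3.08 and 3.08 against 10.03, 9.95 and 10.92 in PANC-1.

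The SNORD115 genes, next to SNORD116, were near the bottom of the range in both lines, with array medians of 2.67 to 2.74 in SW1990 and 2.73 to 2.78 in PANC-1, and 1 of 31 was called. The 84 other C/D box snoRNAs had a median difference of 0.11, with 22 higher and 9 lower (5 lower without b). These families were picked after their values were seen. Copies within a cluster are alike in sequence, so single copies are uncertain. In the arrays labelled GLI1 the medians were -4.05 for SNORD113 and SNORD114 and -4.80 for SNORD116.

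Interferon-stimulated genes, which answer viral RNA and DNA, were higher in SW1990 in the control-labelled arrays. Of 37, 32 were higher in SW1990, 30 at least 2-fold (81.1%), none was called lower, and the median difference was 2.36. In the arrays labelled GLI1, 3 were at least 2-fold higher and the median was 0.17. CXCL10, a chemokine that draws T cells, had signals of 10.58, 10.50 and 10.51 in SW1990 and of 4.37, 4.45 and 5.38 in PANC-1, a difference of 5.79, against 0.47 in the arrays labelled GLI1. The change of 5.32 was called (adjusted p = 7.86e-05 from limma). EPSTI1 was at 8.66, 8.57 and 8.45 in SW1990 against 4.93, 4.95 and 5.12 in PANC-1, and its change with the label, 3.39, had an adjusted p of 1.74e-07. BST2, the virus tether tetherin, was at 11.16, 11.31 and 11.40 against 5.68, 5.62 and 8.37 in PANC-1, and differed by 0.10 in the arrays labelled GLI1.

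Array S8 lay between the lines. Over the list's genes, the median of S8 minus the mean of S10 and S11 was 2.41, and the list's medians were 10.58 to 10.71 in the SW1990 arrays, 9.33 in S8, 7.22 in S10 and 6.35 in S11. OAS2, an antiviral enzyme, was at 11.46, 11.40 and 11.38 in SW1990 and at 6.25, 5.49 and 10.62 in PANC-1, and its difference was 3.96 with all arrays, 5.55 without S8, 3.36 without S10 and 2.98 without S11. IFI27 differed by 4.74 with all arrays, 5.90 without S8 and 4.07 without S11, and IFI44 by 3.74, 4.88 without S8 and 3.05 without S11. BST2 differed by 4.73, and by 5.64 without S8. Without S8, 37 of 37 genes were higher and 36 at least 2-fold, with a median of 3.22. Without S10, 26 were higher, all of them at least 2-fold (median 2.14), and without S11, 26 were higher and 24 at least 2-fold (median 2.03). Without any 1 of the SW1990 arrays, 28 or 29 were higher. IFI6 differed by 1.80 and by 1.14 without S11, and leaving out any 1 control array other than S8 ended its call (adjusted p = 0.062 to 0.0959 from limma). The interaction was called for 12 of the 37. Genes of antigen presentation shared the pattern at a smaller size.

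Of 23 HLA and antigen presentation genes, 13 were higher and 1 (MICB) lower, 6 of them at least 2-fold higher (26.1%), and 10 were so without S8. The median was 0.49, and 0.04 in the arrays labelled GLI1. HLA-B was at 11.71, 11.70 and 11.75 in SW1990 and at 9.72, 9.63 and 10.93 in PANC-1. TAP1, which carries peptides to class I molecules, was 1.36 higher in SW1990 in the control-labelled arrays and 1.02 lower in the arrays labelled GLI1, past the test and 2-fold both times. NLRC5, the activator of class I genes, differed by 1.23 and 0.17. Among the interferon genes themselves, IFNB1 was at 5.09, 4.75 and 5.34 in SW1990 and at 4.08, 4.21 and 4.95 in PANC-1, with overlap, and was not called without any 1 of a, c, S10 or S11 (adjusted p = 0.078 to 0.124 from limma).

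**Figure D4:**
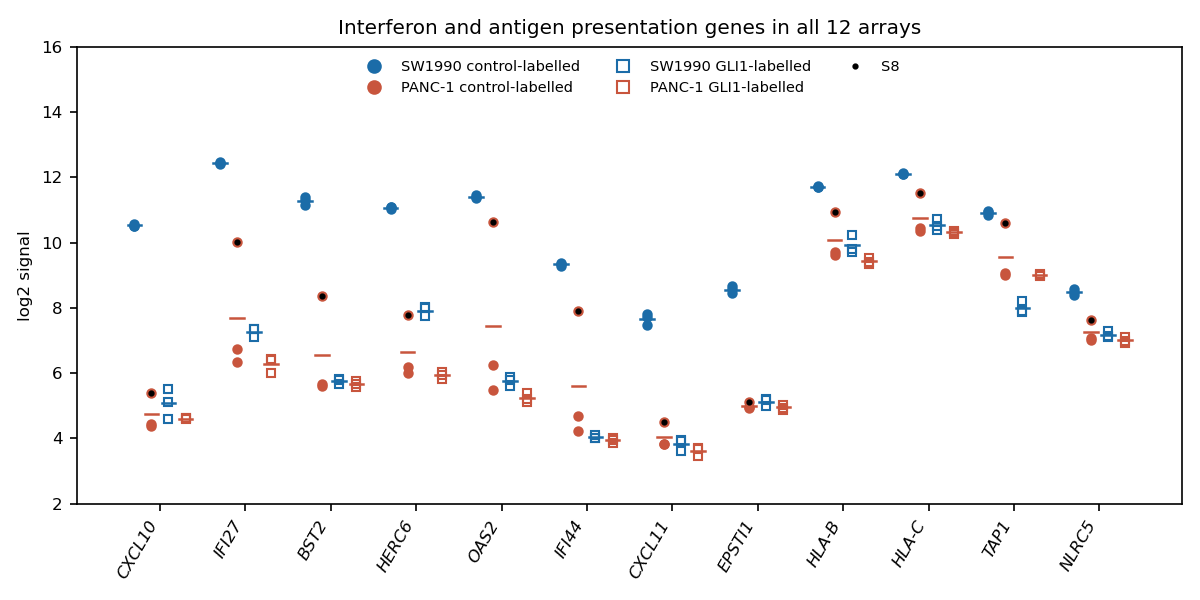
Log2 signal (y axis) of 12 interferon and antigen presentation genes (x axis) in all 12 arrays, in the order SW1990 control-labelled, PANC-1 control-labelled, SW1990 GLI1-labelled and PANC-1 GLI1-labelled within each gene. Lines are means of 3 arrays and the black dots mark S8. The SW1990 control-labelled arrays are highest in every gene, and S8 lies above S10 and S11.

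**Figure D5:**
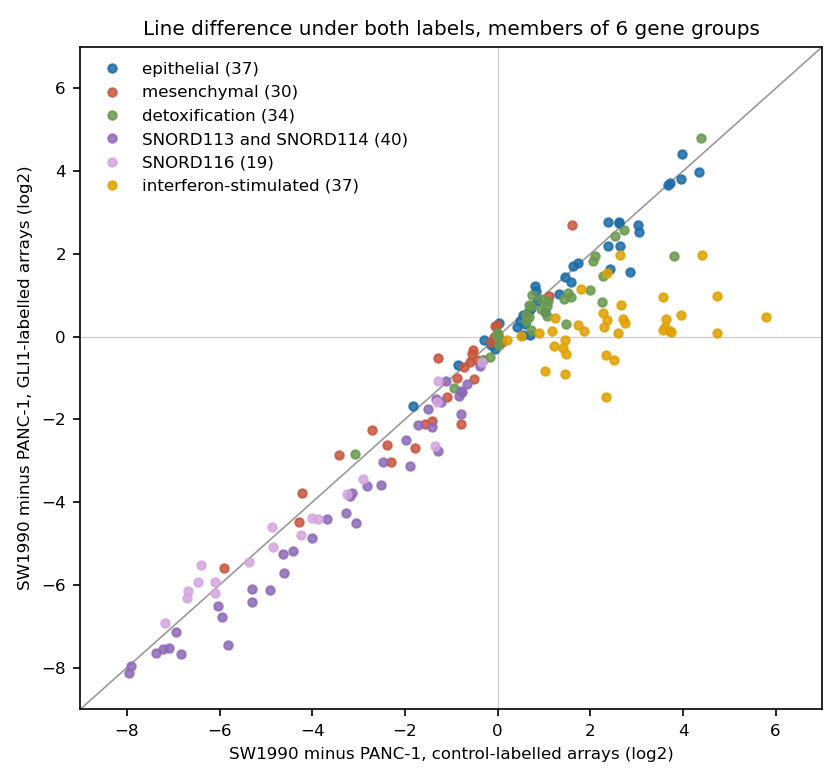
Line difference of the members of 6 gene groups in the control-labelled arrays (x axis) and the GLI1-labelled arrays (y axis), both log2, with the line of equality. The medians on the x and y axes are 1.32 and 1.22 for epithelial, -0.66 and -0.68 for mesenchymal, 0.93 and 0.74 for detoxification, -3.17 and -4.05 for SNORD113 and SNORD114, -4.85 and -4.80 for SNORD116, and 2.36 and 0.17 for interferon-stimulated genes.

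Other signals between cells differed in both directions. Of 34 chemokines and cytokines, 8 were higher and 6 lower, near the 22.0% and 18.7% of all genes. At least 2-fold different were 6 and 5 of them (17.6% and 14.7%, against 4.05% and 4.14% of all genes). CCL2, which draws monocytes, was at 6.14, 6.27 and 6.44 in SW1990 and at 10.71, 12.38 and 12.75 in PANC-1, a difference of -5.66, and -6.28 without S10. CCL20 (-1.80), TGFB2 (-1.39), IL18 (-1.17) and LIF (-1.12) were lower, though IL18 and LIF differed by -0.14 and -0.5 in the arrays labelled GLI1. SW1990 had more CXCL16 (1.75), the EGF receptor ligands BTC (1.66), TGFA (1.16) and EREG (1.11), and IL33 (1.27). EGFR, their receptor, was lower in SW1990, as given above.

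Large differences among neuronal, neuroendocrine, cancer-testis and protocadherin genes were those of a few members. Of 20 neuronal and neuroendocrine genes, 7 were lower and 1 higher, against 18.7% and 22.0% of all genes. SYT1, the calcium sensor of synaptic vesicles, was at 5.43, 5.30 and 5.37 in SW1990 and at 9.06, 8.66 and 9.84 in PANC-1, and the granule protein SCG5 was 1.78 higher. Of 52 cancer-testis genes, 1 was higher and 6 lower, under the 22.0% and 18.7% of all genes. Of these, CSAG1 (-1.97) and MAGEA6 (-1.63) were at least 2-fold lower, the MAGEA copies being near-identical. Of 26 clustered protocadherins, 7 were higher and none was called lower, against 22.0% and 18.7% of all genes. PCDHGA10 (3.28), whose exons are shared in part with its cluster, led these.

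Genes of cell division differed little in size. Of 21 genes of the G2 and M phases, 16 were lower and 1 higher, with a median of -0.54 and 2 at least 2-fold lower, TPX2 (-1.09) and CENPE (-1.02). AURKA was at 9.80, 9.85 and 9.89 in SW1990 and at 10.43, 10.50 and 10.58 in PANC-1. The median was -0.16 in the arrays labelled GLI1. Of 21 S phase genes, 4 were higher (7 without S8) and 3 lower, against 22.0% and 18.7% of all genes, and none was 2-fold different. Of 55 ribosomal protein genes, 19 were higher and 8 lower, with a median of 0.08, and the only one past 2-fold, RPS16 (-1.01), lies in the chromosome 19 run.

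Markers of other cell types were checked against the labels. The epithelial markers CDH1, EPCAM, KRT8, KRT18 and KRT19 were all higher in SW1990. Of 4 duct markers 3 were higher. Of 7 fibroblast markers 3 were higher (ACTA2, FAP at 0.75, PDGFRB at 0.19) and COL1A1 lower. PDGFRB was not called without any 1 of a, S10 or S11 (adjusted p = 0.0507 to 0.0643 from limma), and COL1A1 not without c, as given above. Of 4 leukocyte markers CD14 (0.63), of 6 acinar markers PRSS1 (0.79), of 3 endocrine markers none and of 4 endothelial markers KDR (-2.34) was called. Array medians of these lists ranged from 5.94 to 6.04 in SW1990 and 6.05 to 6.16 in PANC-1 for fibroblasts, and from 4.80 to 4.87 and 4.83 to 5.02 for leukocytes. Their part in the line differences was not tested.

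With 3 arrays against 3, an exact permutation test on a single gene cannot give a p under 0.1, so the calls rest on the spread that limma pools over genes.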

How the data were processed

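RNA was measured on 12 arrays, 4 groups of 3, and grouped by cell line and transfection label. The authors deposited 1 log2 value per probe set and array, 70523 in all for each array. For software and genome build, names were not given in the sources used here. By the labels the RNA was taken up in Trizol and labelled with biotin, which fits the Affymetrix transcriptome type of the probe set names, whereas the study's methods describe Cy3 and Agilent slides. Array medians ranged from 5.863 to 5.996, and the values were quantile normalized. Gene symbols are those of the platform table, brought up to date with RefSeq (21497 by Entrez number, 1974 by symbol, 306 by synonym, 4 kept). Only the 23781 probe sets with 1 symbol entered, without the 1543 that name several genes and the 45199 that name no gene, and for 528 genes the brightest of several probe sets was used. No dim gene was filtered, and no value column went unused. Arrays have no depth, and their number limits the precision.

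The comparison used limma 3.58.1 (lmFit, then eBayes) under R 4.3.3. The model had 4 group means, 8 residual degrees of freedom and no covariates, with Benjamini-Hochberg adjustment over 22411 genes. Lists were described by counts and medians, with no set test. The members, the 42 lists and the tests were chosen with earlier results of these data known, and 6 lists and the genes said to be so were chosen after their values were seen. Named genes are the 15 largest differences in each direction among called genes without overlap between the lines, up to 6 called members per list by size, the defining genes of the lists, and the 8 smallest interaction p-values among genes at least 2-fold different, skipping clone, LOC, LINC, pseudogene and open reading frame names. Members of a list named beyond this rule were chosen after their values were seen.

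Alternatives were the 6 arrays alone, array weights, limma-trend, the deposited values, median centring, the mean of probe sets, no dim genes, a 0.01 threshold, arrays a and b averaged, each control array left out, treat and the methods' t-test. In simulated data for 22411 genes, the line comparison found 78% of 1.5-fold changes, 96% of 2-fold changes and 100% of 4-fold changes. Genes simulated without a line difference made up 6.03% of what was called there. Both rates belong to the simulation only. The error rate of the 9102 real calls, made with S8 standing apart, was not measured. Plots were made with Python, pandas and matplotlib.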

Additional observations from a re-analysis of the deposited data

Results flagged for a closer look

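The line difference itself changed with the label, by the interaction test (adjusted p under 0.05), in 31 of the 286 named genes. Over all 22411 genes it did so in 536 (2.39%). The named genes include 8 picked for the smallest interaction p-values among genes at least 2-fold different, so the 31 are partly fixed by that choice. The value given is the difference in the control-labelled arrays minus that in the arrays labelled GLI1. Among these 31, the largest positive values were of interferon and antigen presentation genes, CXCL10 with 5.32, BST2 with 4.63, CXCL11 with 3.39, EPSTI1 with 3.39, HCP5 with 2.52, HERC6 with 2.42 and TAP1 with 2.38. NLRC5 with 1.07 and HLA-F with 1.0 were smaller. In SW1990 these genes were brighter in the control-labelled arrays. CYP4F11 changed by 1.85, GLI1 by 1.35, MUC13 by 1.23 and GCLC, which makes glutathione, by 1.15. Smaller positive values were found for FAP (0.77), MMP13 (0.75), MUC20 (0.74), CD14 (0.68), ESRP1 (0.52) and ITGBL1 (0.45).

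Negative values mean that the line difference moved towards PANC-1 in the control-labelled arrays. IGFL2, a secreted growth factor, changed by -2.36, with differences of 1.5 in the control-labelled arrays and 3.86 in those labelled GLI1. PRF1, which encodes perforin, changed by -1.94, with 1.83 and 3.77. SLFN12 changed by -1.27, with -4.31 and -3.04. The other genes were MIR141 (-0.93), PRSS1 (-0.78), CDX2 (-0.77), KLK7 (-0.67), AXIN2 (-0.63), COL12A1 (-0.62), FBL (-0.62), RPS23 (-0.58) and EHF (-0.44). Groups of 3 arrays were not tested for single arrays that stand apart.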

How the results depend on the processing

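No paired analysis was possible because the control arrays of both lines share no replicate names. In the arrays labelled GLI1, which share the names LIP, LIP-1 and LIP-2, a fit of those arrays alone with the name as a replicate block gave 1325 shared line differences, against 1323 in the fit of all arrays and 1325 alone with no block. The counts of called genes, of genes at least 2-fold different and of shared differences stayed within 1.5 times of their values under all 17 other settings, except that limma's treat gave 922 genes beyond 2-fold in place of 1836. Without each control array in turn, called genes numbered 7964 to 9683, 2-fold genes 1777 to 2028, 2-fold higher genes 840 to 1063, 2-fold lower genes 903 to 965, and shared differences 1274 to 1353. The methods' t-test called 9305 genes without adjustment and 6676 after Benjamini-Hochberg adjustment. The count of line differences that change with the label was the least steady, at 536, with 6039 under array weights, 267 after median centring, 234 with arrays a and b averaged, 109 at an adjusted p under 0.01, and 228 to 3416 without each control array. The cause was not tested. Centring moved the share of calls that were higher in SW1990 to 45.6%, against 54.1%. Of 270 called named genes, 232 were called under every setting but the unadjusted t-test, and none reversed under any of the 17.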

Other observations

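Shares of 2-fold genes were also counted by chromosome, without the Y chromosome. Chromosome 4 had the highest share of genes at least 2-fold higher in SW1990 (7.20% of 833) and chromosome 18 the highest share lower (8.11% of 333), with chromosome 14 next (6.96% of 862). These shares were not tested. The chromosome medians ranged from -0.07 to 0.05.

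The differences describe these arrays of 2 lines and not classes of tumours, and 3 arrays a group limit the precision. The GLI1 signal ran against the labels in both lines, and S8 stood apart from the other PANC-1 control arrays. Signals of different genes cannot be set against each other on arrays. Protein, DNA and mature microRNA were not measured.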
